A study of Solanum lycopersicum with 26 samples.

Results

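The endosperm of mature tomato seeds was compared between fruits that ripened in heat and fruits that ripened at standard temperature, both in high light. The comparison uses 3 HT_HL and 3 ST_HL endosperm libraries, chosen by their labels, out of 26 RNA-seq libraries of the series. All material was Solanum lycopersicum cv. Moneymaker. The fruits were picked at the breaker stage, when the green fruit first colours (63 days after flowering), and stood in a growth chamber for 7 days with 16 h of light a day, so that the seeds were 70 days old at harvest. ST_HL means standard temperature (23 °C by day, 20 °C by night) with high light of 300 µE, and HT_HL means high temperature (32 °C by day, 26 °C by night) with the same light. Beside them stand the endosperm of the dim-light pair, HT_DL and ST_DL (25 µE, 3 libraries each), and the high-light embryos (4 ST_HL and 3 HT_HL libraries). The heat was thus given to detached fruits, and each replicate was a pool of 10 seeds from 2 fruits. The sources do not say whether the fruits of different replicates came from different plants, so the p-values measure only the spread between these samples. Nor do they name a second chamber for any condition, so heat and chamber cannot be told apart.

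The endosperm is the living storage tissue around the tomato embryo, rich in oil bodies, storage protein and mannan in thick walls, and its weakening lets the root tip emerge at germination. Stored oil is turned into sugar through beta-oxidation and the glyoxylate cycle, in which isocitrate lyase is a committed enzyme, while starch is released by phosphorylating dikinases, amylases and phosphorylases. Aromatic amino acids are made in plastids, where arogenate is converted to phenylalanine by arogenate dehydratases and to tyrosine by arogenate dehydrogenases. Heat in plants is generally met with chaperones, changes in membrane lipids and a redirected respiration.

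Genes carry the IDs of the ITAG4.0 annotation. Of the 19185 genes tested, 1145 have a Mercator description (photosynthesis, respiration, carbohydrate, amino acid and lipid metabolism) and 605 carry a Gene Ontology (GO) term in the parts of the annotation used here, the GO part covering IDs that start with Solyc00g and the beginning of Solyc01g. No ID could be matched to RefSeq, so families outside these parts, heat shock proteins and cell wall enzymes among them, are counted below but cannot be named. Levels are given as CPM, counts scaled to a common library size after TMM normalization, and compare libraries, not genes of different length.

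The 6 libraries held between 20885467 and 21174413 counts. On the first principal component of the 12 endosperm libraries (39.9% of the variance) the HT_HL libraries lay together, from 54.5 to 68, whereas ST_HL replicates 1, 2 and 3 scored 8.88, -57.7 and -36.9. A set of 142 genes restricted to endosperm in the dim-light libraries summed to 53930 to 58540 CPM in the 6 libraries, against which their level in ST_HL embryo was low (the endosperm sum was 12100% of it), and the 16 oleosins and caleosins of the oil bodies summed to 5699 to 6675 CPM in ST_HL and 6582 to 7420 CPM in HT_HL with 0 of 13 tested members called. Conversely, 47 genes restricted to embryo in the dim-light libraries (at least 20 CPM and 50 times the endosperm level, a list built after the data were seen) summed to 79.96, 114.1 and 136.1 CPM in ST_HL endosperm, 1.69% of their level in ST_HL embryo, and to 26.34, 27.63 and 29.6 CPM in HT_HL. The 6 RuBisCo small subunit genes, which mark green tissue, summed to 5.94, 89.9 and 29.95 CPM in ST_HL and to 1.73, 2.62 and 1.58 CPM in HT_HL, and reached 113.2 CPM in HT_DL replicate 3. In dissected tissue, fewer cells of a kind and less RNA per cell cannot be told apart.

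**Figure D1:**
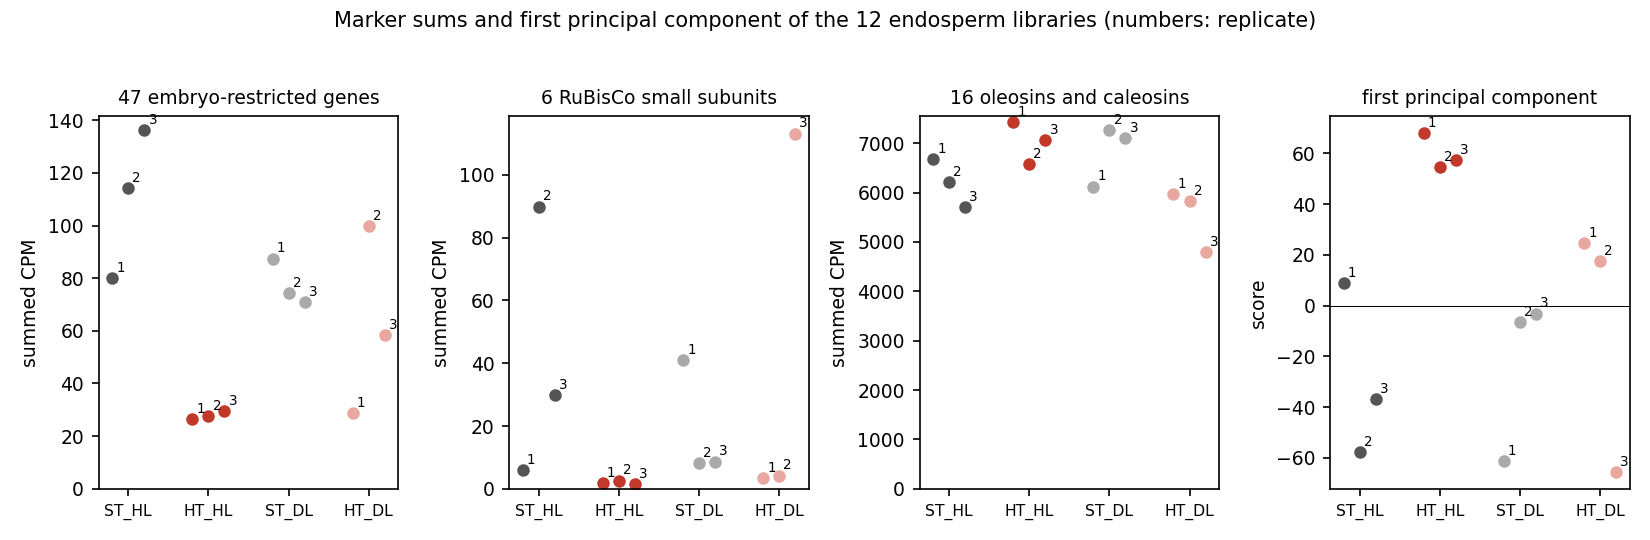
Summed CPM of embryo-restricted genes, of RuBisCo small subunits and of oleosins with caleosins, and scores on the first principal component, for the 12 endosperm libraries (points, numbered by replicate) of the 4 conditions. The embryo-restricted sums of HT_HL (26.34 to 29.6 CPM) lie below all 3 of ST_HL, with HT_DL replicate 1 among them at 28.88 CPM, and the RuBisCo sums of ST_HL spread from 5.94 to 89.9 CPM.

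Heat in high light raised 609 genes (3.17% of those tested) and lowered 513 (2.67%), 1122 (5.85%) in all, with an adjusted p (Benjamini-Hochberg) under 0.05 in edgeR's quasi-likelihood test and an absolute log2 fold change above 1; genes that met both are called DEGs. With no fold threshold, 2561 genes (13.3%) were higher and 2003 (10.4%) lower. The raised genes included more abundant transcripts, with 54 of them but only 5 of the lowered ones at 100 CPM or more in the higher group, and 185 against 87 changed more than 4-fold. In 592 raised (97.2%) and 504 lowered DEGs (98.2%) the 3 HT_HL values did not overlap the 3 ST_HL values, against 40.2% of all genes tested. This is a description only, since the DEGs were chosen on these libraries.

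ST_HL replicate 2 carried most of the large decreases that were not called. A further 343 genes were lower by more than 4-fold without passing the test, and 316 of these were highest in ST_HL replicate 2, which has the highest RuBisCo sum of the 6 libraries compared. Only 15 uncalled genes were higher by more than 4-fold. Among the DEGs, 24 of the lowered (4.68%) and 7 of the raised (1.15%) were at least 20 times higher in embryo than in endosperm, against 0.756% of all genes tested, and 489 lowered DEGs were left without them. Of the 47 embryo-restricted genes 42 were tested, of which 15 were called down and 1 up (median change -2.06 on the log2 scale). The part of embryo or green-tissue RNA in the lowered genes was not tested.

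The counts depended on single libraries. They became 395 up and 254 down without HT_HL replicate 1, and 422 up and 335 down without ST_HL replicate 3. When the 4 libraries with the highest RuBisCo sums were left out (ST_HL replicates 2 and 3, ST_DL replicate 1 and HT_DL replicate 3; chosen after the data were seen), so that ST_HL rested on its replicate 1 and the spread of the other conditions, 258 genes were up and 241 down, and 374 of the 1122 DEGs were called again. No DEG changed its sign under any of the alternatives. Of the 71 named genes, 39 were called without each of the 6 libraries in turn.

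**Figure D2:**
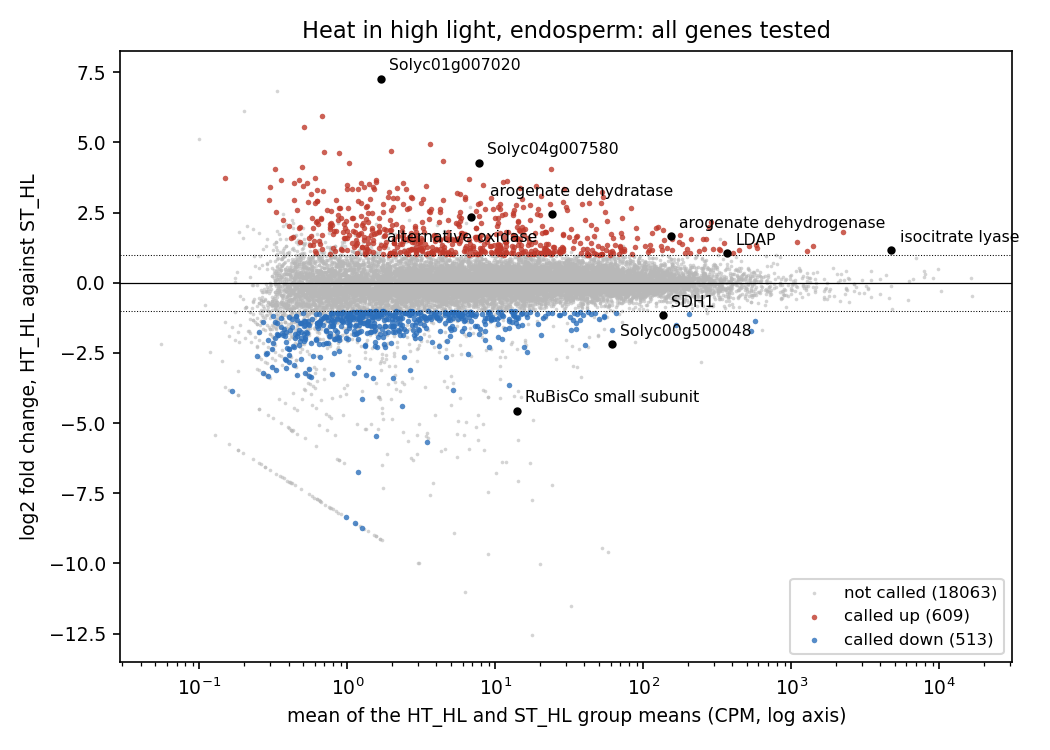
Log2 fold change of HT_HL against ST_HL endosperm (y axis) by the mean of the group means in CPM (x axis, log scale) for the 19185 genes tested, with 609 genes called up, 513 called down and selected genes named. Raised genes extend to higher levels than lowered ones, and the grey points far below -2.5 are decreases that did not pass the test.

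Most genes for enzymes that use arogenate rose. Of the 7 tested genes for arogenate dehydrogenase and arogenate dehydratase, 5 were called up and 0 down, against 3.17% up and 2.67% down of all genes. The main arogenate dehydrogenase, Solyc09g011870.3.1, stood at 84.4, 74 and 64.5 CPM in ST_HL and at 270.1, 243.9 and 187.6 CPM in HT_HL, a 3.15-fold rise (log2 fold change 1.65 ± 0.22 SE, edgeR adjusted p = 0.000815). Its relatives Solyc07g007590.1.1 (8.93, 7.98 and 7.77 CPM against 22.9, 16.7 and 15.2 CPM, log2 fold change 1.15) and Solyc06g050630.3.1 (0.52, 0.38 and 0.51 CPM against 2.01, 1.93 and 1.22 CPM, log2 fold change 1.85) rose too, so that all 3 dehydrogenases tested were called up and in none did the groups overlap.

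On the phenylalanine side, arogenate dehydratase Solyc06g074530.1.1 was at 8.41, 9.26 and 5.01 CPM in ST_HL and at 53.9, 22.4 and 46.7 CPM in HT_HL (log2 fold change 2.44 ± 0.34 SE, edgeR adjusted p = 0.000964). With all 26 libraries in the model its call was lost (edgeR adjusted p = 0.0526), as was that of the dehydrogenase Solyc09g011870.3.1 (0.0898). A second dehydratase, Solyc11g066890.1.1, went from 4.66, 5.03 and 4.17 CPM to 11.6, 16.4 and 8.1 CPM (log2 fold change 1.38 ± 0.33 SE, edgeR adjusted p = 0.0121), a call that missed the threshold without ST_HL replicate 3 (adjusted p = 0.0524). The other 2 dehydratases tested were not called and had lower means in HT_HL, Solyc11g072520.3.1 with 20.95, 20.9 and 21.7 CPM against 15.5, 21 and 17.1 CPM and Solyc02g080620.3.1 with 2.28, 1.95 and 1.97 CPM against 1.45, 2.25 and 1.22 CPM. Solyc00g500095.1.1, which carries the GO term for phenylalanine ammonia-lyase activity, the entry step of phenylpropanoid synthesis, stood at 0.1, 0.66 and 0.05 CPM against 2.06, 0.96 and 2.24 CPM (log2 fold change 2.68 ± 0.81 SE, edgeR adjusted p = 0.0334). It passed the filter on low counts only through the heat libraries, so its call follows in large part from the filter.

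Elsewhere in amino acid metabolism the changes went both ways. The list of amino acid synthesis had 7 DEGs up and 6 down of 144 tested (4.86% and 4.17%), at a median of 0.02 on the log2 scale, against -0.002 for all genes tested. Besides the arogenate genes, a glutamate decarboxylase, which makes gamma-aminobutyric acid (GABA) from glutamate (Solyc04g025530.3.1, log2 fold change 1.92), and an ornithine carbamoyltransferase of the arginine route (Solyc12g089210.2.1, 1.18) rose. The glutamate decarboxylase passed the filter on low counts only through the heat libraries, so its call follows in large part from the filter. Of 3 glutamate decarboxylases tested, 2 were lower in HT_HL and not called (lowest log2 fold change -3.21). Lowered were the cystathionine gamma-synthase that commits carbon to methionine (Solyc02g067180.3.1: 83.6, 81 and 102.7 CPM against 40.7, 56.4 and 30.7 CPM, log2 fold change -1.06), histidinol-phosphate aminotransferase of histidine synthesis (Solyc04g009350.3.1, -1.05), the pyrroline-5-carboxylate synthetase of proline synthesis (Solyc06g019170.3.1, -1.63), an asparaginase (Solyc03g114790.3.1, -1.07), a bifunctional aspartate kinase and homoserine dehydrogenase at the head of the aspartate family (Solyc06g064550.3.1, -1.91) and a branched-chain aminotransferase (Solyc12g088220.2.1, -1.51). In amino acid degradation 0 DEGs were up and 2 down of 58 tested (0% and 3.45%), the second being a GABA pyruvate transaminase, which breaks GABA down (Solyc12g006450.2.1, -1.20). Of these lowered genes, the calls of the aminotransferases, of the aspartate kinase, of cystathionine gamma-synthase and of the GABA transaminase were each lost without at least 1 single library, with log2 fold changes that remained between -0.88 and -2.03 there.

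**Figure D3:**
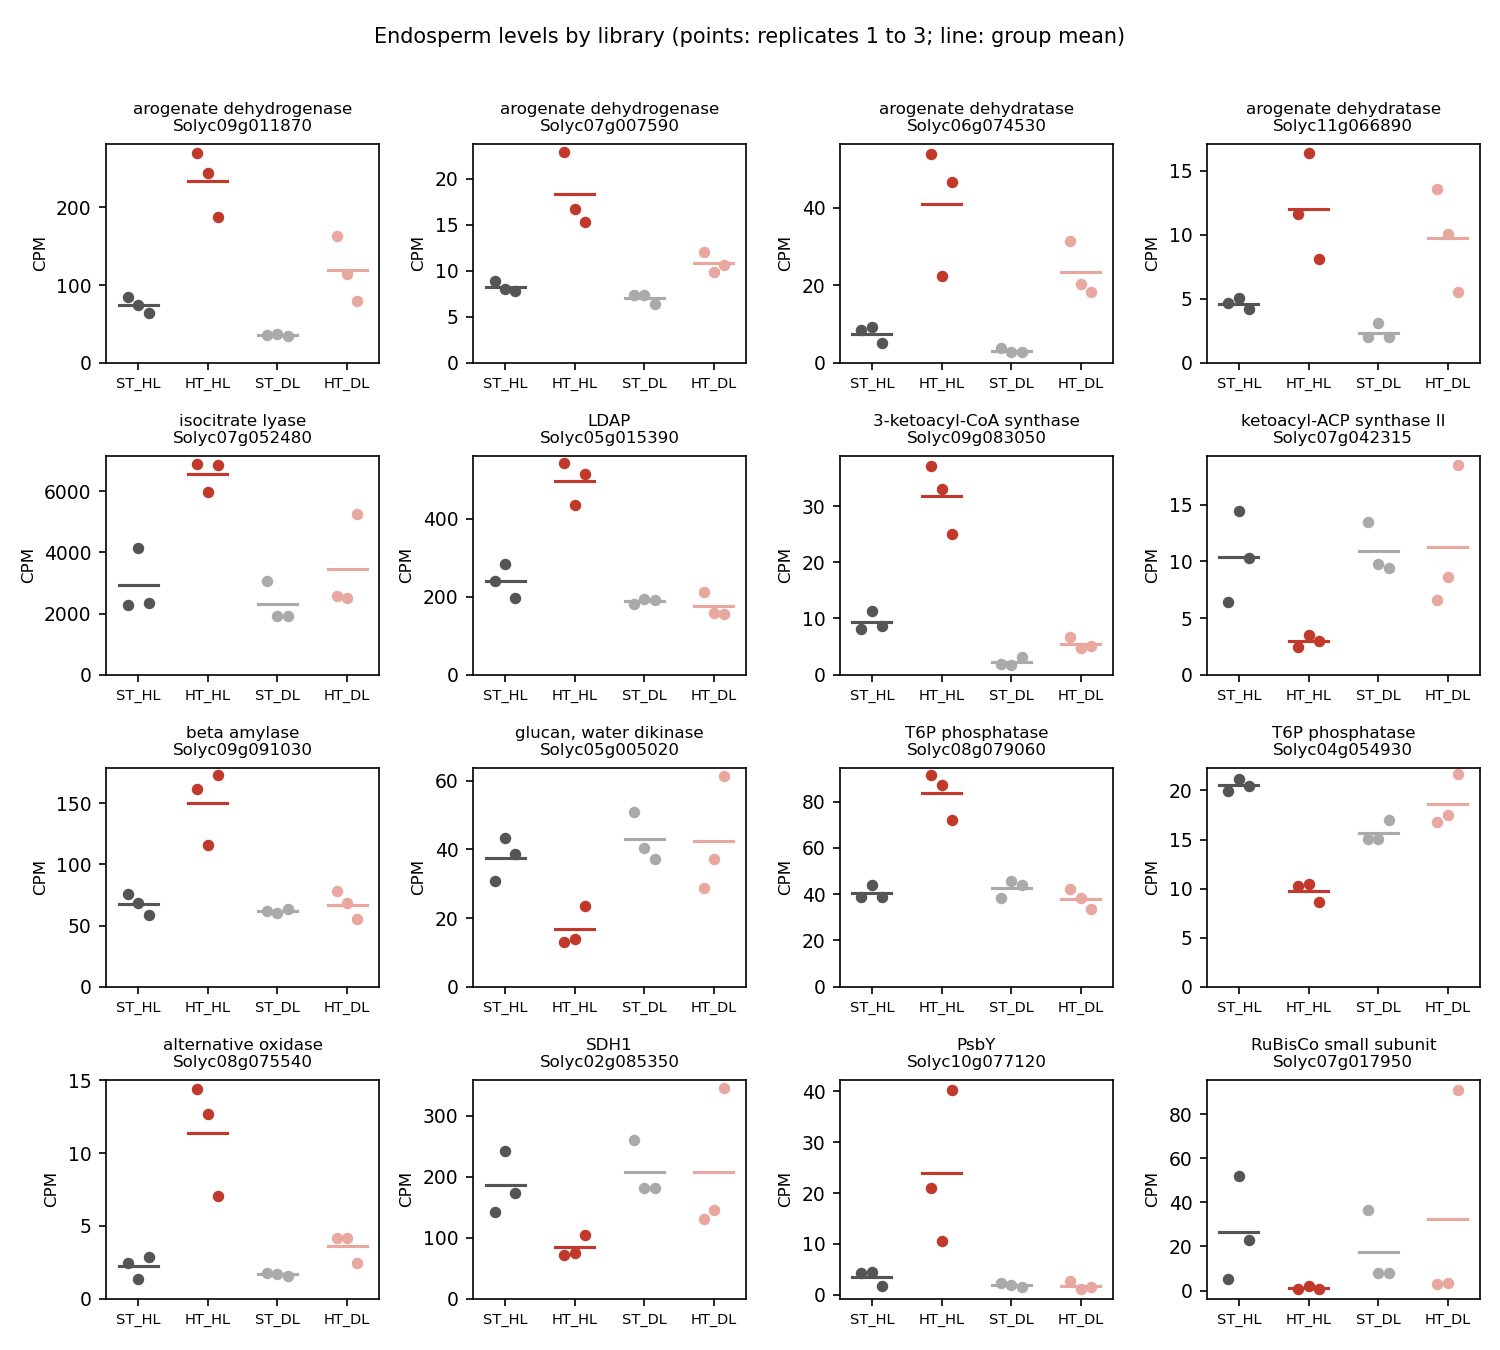
Levels in CPM (y axes, linear) of 16 endosperm genes in the 12 endosperm libraries, by condition; points are replicates 1 to 3 and lines group means. The arogenate genes are higher under heat in both light levels, whereas for LDAP, PsbY and both called trehalose-6-phosphate (T6P) phosphatases heat and standard libraries are apart in high light and overlap in dim light.

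Among genes of oil and membrane lipids, isocitrate lyase was the most abundant named DEG. Solyc07g052480.3.1, the only isocitrate lyase in the annotation used here, had 2281, 4133 and 2360 CPM in ST_HL and 6904, 5970 and 6840 CPM in HT_HL (log2 fold change 1.17 ± 0.32 SE, edgeR adjusted p = 0.0216). The groups did not overlap, but ST_HL replicate 2 lay far above its fellows and the call was lost without ST_HL replicate 1 (adjusted p = 0.0771), ST_HL replicate 3 (0.0872) or HT_HL replicate 1 (0.07). The list of fatty acid degradation to which it belongs had 3 DEGs up and 0 down of 33 tested (9.09% and 0%) and a median of -0.13. The other members called were a dodecenoyl-CoA isomerase of beta-oxidation (Solyc05g010720.4.1, log2 fold change 1.15) and an alpha dioxygenase (Solyc02g087070.4.1, 1.75), an enzyme known for oxidised fatty acids in defence. The alpha dioxygenase was at 0.29, 0.43 and 0.37 CPM in ST_HL. It passed the filter on low counts only through the heat libraries, so its call follows in large part from the filter.

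Of 23 genes for lipid body proteins tested, 1 was called up and 0 down (4.35% and 0%, against 3.17% and 2.67% of all genes). Solyc05g015390.3.1, a lipid droplet associated factor (LDAP), was at 239.6, 284.1 and 196.9 CPM in ST_HL and at 542.2, 434.6 and 515.7 CPM in HT_HL (log2 fold change 1.05 ± 0.15 SE, edgeR adjusted p = 0.00108). Its fold change fell below the threshold without ST_HL replicate 3 (0.93) and without HT_HL replicate 1 (0.99), while its adjusted p did not pass 0.0286 in any alternative. The 2 other LDAP genes tested were lower in HT_HL and not called. Triacylglycerol lipases had 0 DEGs of 10 tested; 1 of them passed the test with no fold threshold.

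Fatty acid synthesis had 4 DEGs up and 1 down of 91 tested (4.4% and 1.1%). Of 13 tested 3-ketoacyl-CoA synthases, which elongate fatty acids for waxes and other very long chain lipids, 2 were called up: Solyc09g083050.3.1 with 8.17, 11.4 and 8.61 CPM against 37.2, 33 and 25 CPM (log2 fold change 1.76 ± 0.23 SE, edgeR adjusted p = 0.000626), and the weak Solyc09g065780.3.1 (1.54). Higher too were a biotin carboxyl carrier subunit of acetyl-CoA carboxylase, the entry enzyme (Solyc05g056290.4.1, 1.39), and a desaturase of the FAD5/ADS type (Solyc03g116730.4.1, 1.09). The ketoacyl-ACP synthase II that extends palmitate to stearate fell, Solyc07g042315.1.1, from 6.46, 14.4 and 10.3 CPM to 2.43, 3.49 and 2.96 CPM (log2 fold change -1.81 ± 0.39 SE, edgeR adjusted p = 0.00745), and this call held under every alternative.

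Of 75 phospholipases measured 33 were tested, with 4 DEGs up and 0 down (12.1% and 0%, against 3.17% and 2.67% of all genes). The median of the list was -0.31, however, and its lowest uncalled value -7.75. The raised members were 3 of 8 tested phospholipases of the A1 class, Solyc08g022240.1.1 (0.19, 0.28 and 0.09 CPM against 3, 0.78 and 2.14 CPM, log2 fold change 3.34), Solyc08g078090.1.1 (2.22) and Solyc08g007225.1.1 (1.26), and the plastid phosphatidylglycerol lipase PLIP1, Solyc01g079600.4.1 (1.95, 1.99 and 1.97 CPM against 6.41, 3.17 and 7.85 CPM, 1.56). All 4 were at low levels, and Solyc08g078090.1.1 lost its call without ST_HL replicate 2 or 3 or HT_HL replicate 1. Both it and Solyc08g022240.1.1 passed the filter on low counts only through the heat libraries. Their calls thus follow in large part from the filter. In glycerolipid synthesis 1 gene of 69 tested rose, a phosphocholine phosphatase (Solyc06g062550.4.1, 1.69), and 3 fell: the glycerol-3-phosphate acyltransferase GPAT9 that starts glycerolipid assembly (Solyc02g055533.1.1, -1.24), a diacylglycerol kinase (Solyc10g008640.3.1, -1.52) and a phospho-base methyltransferase of phosphatidylcholine synthesis (Solyc06g068950.4.1, -1.09). GPAT9 lost its call without HT_HL replicate 1 (adjusted p = 0.0641).

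Starch genes moved both ways, with 3 DEGs up and 3 down of 48 tested (6.25% each) and 33 of the 48 lower, at a median of -0.20. Of 6 beta-amylases tested, which release maltose, 2 were called up: Solyc09g091030.3.1 at 75.9, 68.5 and 58.5 CPM in ST_HL and 161.6, 116.2 and 173 CPM in HT_HL (log2 fold change 1.15 ± 0.16 SE, edgeR adjusted p = 0.000905), and Solyc08g007130.4.1 (1.95). The third raised gene was an ESV1 factor, which shapes starch granules in Arabidopsis (Solyc12g094570.1.1, 1.06). The glucan, water dikinase that primes starch for breakdown (Solyc05g005020.4.1: 30.6, 43.3 and 38.7 CPM against 13.2, 13.9 and 23.6 CPM, -1.15), a cytosolic alpha-glucan phosphorylase (Solyc09g031970.3.1: 14.3, 11.4 and 13.8 CPM against 5.38, 5.28 and 6.32 CPM, -1.22) and an ADP-glucose pyrophosphorylase subunit of starch synthesis (Solyc07g056140.3.1, -1.34) fell. The phosphorylase call held under every alternative, whereas that of the dikinase was lost without HT_HL replicate 1 (adjusted p = 0.0733) or 2 (0.0549) and that of the pyrophosphorylase without HT_HL replicate 1 (0.0532).

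Of 4 tested trehalose-6-phosphate phosphatases, which remove the sugar signal trehalose-6-phosphate, 1 was called up and 1 down. Log2 fold changes of the 4 ran from -1.09 to 1.07, and the genes at both ends were not called. The list of trehalose metabolism had 1 DEG up and 1 down of 7 tested (14.3% each). Solyc08g079060.4.1 rose from 39, 44 and 38.7 CPM to 91.6, 87.3 and 72.1 CPM (log2 fold change 1.05 ± 0.12 SE, edgeR adjusted p = 0.000463), while Solyc04g054930.3.1 fell from 19.95, 21.2 and 20.4 CPM to 10.3, 10.5 and 8.61 CPM (log2 fold change -1.07 ± 0.12 SE, edgeR adjusted p = 0.000434). Both fold changes lie near the threshold and dropped just below it without HT_HL replicate 1 (0.98) and HT_HL replicate 3 (-0.98), respectively. A raffinose synthase, whose product protects drying seeds, fell from 1.24, 1.09 and 1.31 CPM to 0.09, 0.55 and 0.15 CPM (Solyc02g086530.4.1, log2 fold change -2.15 ± 0.50 SE, edgeR adjusted p = 0.0111).

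In glycolysis 2 genes rose and 1 fell of 26 tested (7.69% and 3.85%, against 3.17% and 2.67% of all genes). The aldolase Solyc07g065900.3.1 (2, 2.04 and 2.53 CPM against 5.52, 5.42 and 4.94 CPM, log2 fold change 1.27) and the phosphoglycerate mutase Solyc01g098590.3.1 (1.19, 0.24 and 0.89 CPM against 6.04, 5.28 and 5.25 CPM, 2.83) were higher, and a pyrophosphate-dependent phosphofructokinase was lower (Solyc07g049280.3.1, -1.28). A 6-phosphogluconate dehydrogenase of the oxidative pentose phosphate pathway rose (Solyc04g005160.3.1: 11.4, 9.73 and 8.94 CPM against 22.5, 23.8 and 19.6 CPM, 1.13), and a PEP carboxylase, which refills the citric acid cycle, fell (Solyc07g062530.3.1: 16.2, 19.6 and 19.1 CPM against 7.53, 9.5 and 8.51 CPM, -1.10). Of 7 genes tested in fermentation, 1 was called, the L-lactate dehydrogenase Solyc08g007420.3.1, which was under 1 CPM in all 6 libraries and lost its call without any 1 of 5 of them. Among the 63 nucleotide sugar genes tested (3.17% up and 1.59% down), a UDP-glucuronic acid 4-epimerase of pectin precursors (Solyc12g010540.1.1, 1, 1.61 and 0.84 CPM against 7.58, 3.4 and 4.69 CPM, 2.18) and a UDP-glucuronic acid decarboxylase of xylan precursors (Solyc10g085920.3.1, 1.15) were called up, and an N-acetylglucosamine-phosphate mutase down (Solyc08g077270.4.1, -1.05). The decarboxylase lost its call without any single library except HT_HL replicate 3 (adjusted p up to 0.138), and the mutase fell just below the fold threshold without ST_HL replicate 3 or HT_HL replicate 1.

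In mitochondria an alternative oxidase stood out. This enzyme passes electrons from ubiquinone to oxygen without pumping protons. Of 2 alternative oxidase genes tested, 1 was called up and the other was not called (log2 fold change -0.16). Solyc08g075540.5.1.1 was at 2.47, 1.38 and 2.9 CPM in ST_HL and at 14.4, 12.7 and 7.03 CPM in HT_HL, a 5.05-fold rise (log2 fold change 2.33 ± 0.33 SE, edgeR adjusted p = 0.000919) that held under every alternative. It was 1 of 2 DEGs up, with 1 down, among 114 oxidative phosphorylation genes tested (1.75% and 0.877%), the other being the cytochrome c oxidase assembly factor COX19 (Solyc03g120820.4.1, 1.00), whose fold change sat at the threshold and dropped below it without ST_HL replicate 1 or 3 or HT_HL replicate 1 or 3. In the citric acid cycle an iron-sulphur subunit of succinate dehydrogenase (SDH2, Solyc04g055030.2.1: 10.3, 13.6 and 8.71 CPM against 31.4, 25.3 and 14.7 CPM, 1.13) was called up and the flavoprotein subunit of the same enzyme (SDH1, Solyc02g085350.4.1: 142.2, 242.7 and 173.5 CPM against 71.5, 75.8 and 104.8 CPM, -1.15) down. The SDH1 call was lost without ST_HL replicate 2 (adjusted p = 0.11), ST_HL replicate 3 (0.0701), HT_HL replicate 1 (0.126) or HT_HL replicate 2 (0.0937), that of SDH2 without ST_HL replicate 3 (log2 fold change 0.99) or HT_HL replicate 1 (adjusted p = 0.0516).

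Photosynthetic genes were weakly expressed and changed singly. The 141 photosystem and light-harvesting genes summed to 658 to 697.9 CPM in ST_HL and 711.9 to 754.5 CPM in HT_HL. In photosystem II 2 genes were called up and 3 down of 59 tested (3.39% and 5.08%), in photosystem I 2 up and 1 down of 16 (12.5% and 6.25%). The largest rise was that of PsbY, a small subunit of photosystem II (Solyc10g077120.3.1: 4.23, 4.51 and 1.64 CPM against 21, 10.5 and 40.3 CPM, log2 fold change 2.79 ± 0.50 SE, edgeR adjusted p = 0.00315). The antenna protein LHCa3 (Solyc12g011280.2.1, 1.91), the photosystem I assembly factor PSA3 (Solyc02g086890.3.1, 1.23), PsbR (Solyc12g017250.2.1, 1.19) and the co-chaperone CPN20 that assists RuBisCo assembly (Solyc07g042250.3.1: 64.9, 82.8 and 59 CPM against 159.6, 140.5 and 137.6 CPM, 1.08) were also called up, CPN20 not without ST_HL replicate 3 (0.98).

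On the falling side were a splicing factor for the plastid ndhA transcript (Solyc02g068760.4.1: 5.51, 5.22 and 4.12 CPM against 0.98, 1.19 and 1.63 CPM, log2 fold change -1.96 ± 0.26 SE, edgeR adjusted p = 0.000725), which was called under every alternative, the assembly factors HCF244 (Solyc01g112060.4.1, -1.54) and HCF101 (Solyc12g007010.2.1, -1.20) and the acclimation factor APE (Solyc03g034170.4.1, -1.15). HCF101 lost its call without ST_HL replicate 3 (adjusted p = 0.0688) or HT_HL replicate 1 (0.0627). The RuBisCo small subunit Solyc07g017950.3.1 had 5.37, 51.8 and 22.8 CPM in ST_HL and 0.75, 1.84 and 0.76 CPM in HT_HL (-4.56, edgeR adjusted p = 0.0444). Its ST_HL values lie far apart, and the call was lost without any single library except ST_HL replicate 1, with adjusted p-values up to 0.147. An LHCb gene (Solyc02g070940.1.1: 0.48, 4.84 and 1.83 CPM against 0.19, 0 and 0.2 CPM, -4.15) was called down too, and lost its call without ST_HL replicate 2 (adjusted p = 0.0755), HT_HL replicate 1 (0.0683) or HT_HL replicate 2 (0.0606).

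**Figure D4:**
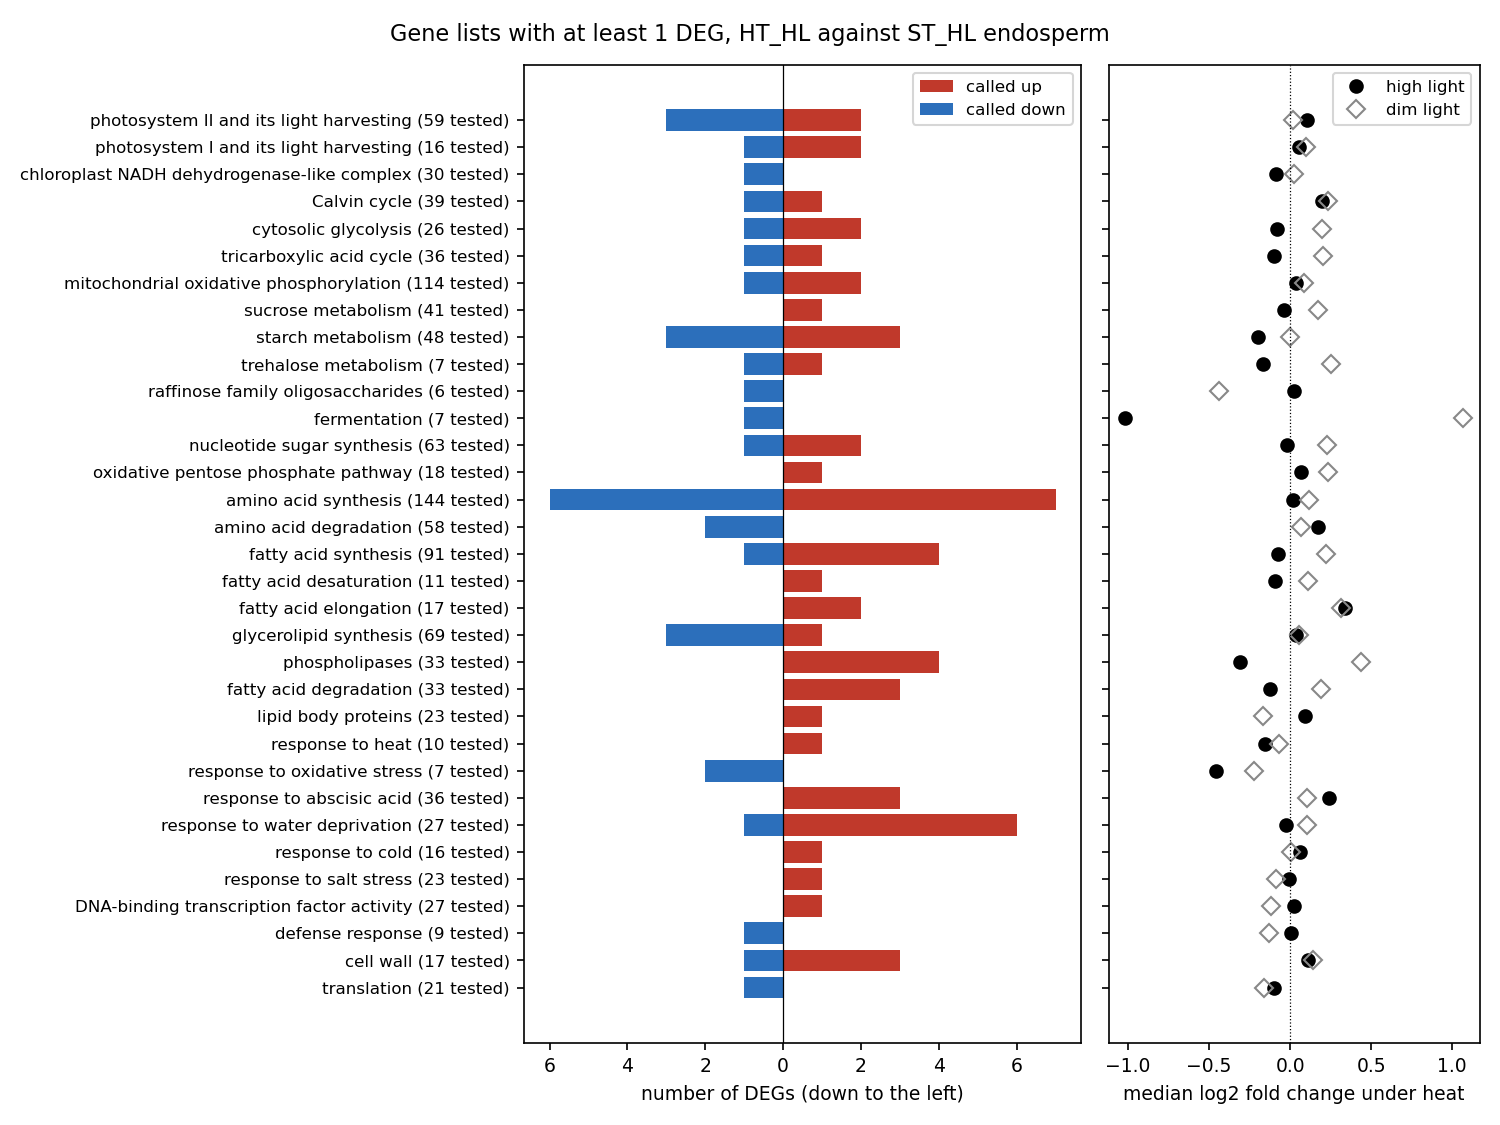
Number of DEGs up (right) and down (left) of each gene list with at least 1 DEG, and the median log2 fold change of the list under heat in high light (filled) and in dim light (open). Amino acid synthesis has 7 up and 6 down of 144 tested, and medians lie within 0.5 of 0 in high light for every list shown except fermentation (-1.02, 7 genes).

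Among called genes with GO terms, the largest fold changes were those of a small group linked to defence. Of 8 genes with the term for respiratory burst in defence, 4 passed the filter on low counts; all 4 were called up, and all 4 also carry terms for response to chitin and for ubiquitin transfer or ligation; the group was picked after its values were seen, and since these 4 passed the filter only through the heat libraries, their calls follow in large part from the filter. Together the 8 summed to 0.43, 0 and 0.33 CPM in ST_HL, 14.1, 3.21 and 6.27 CPM in HT_HL, 0.05 to 0.3 CPM in ST_DL and 1.25 to 2.27 CPM in HT_DL. The lack of overlap between heat and standard sums carries no weight of its own, given how the group was picked and filtered. Solyc01g007020.4.1 had 1 count in ST_HL and 211 in HT_HL, a ratio of 213.3 (95% interval 37.9 to 8465, exact, counting error only), and its neighbour Solyc01g007030.3.1 had 1 and 84, a ratio of 84.9 (14.8 to 3394). Solyc01g007040.4.1 (4 and 108 counts) and Solyc01g009320.2.1 (3 and 58) gave ratios of 27.3 and 19.6. The first 3 have neighbouring IDs; whether they share reads was not tested, so the division of counts among them is uncertain. A related gene at higher level, Solyc01g066430.3.1, with terms for ubiquitin transfer, response to chitin and defence against bacteria, rose from 6.27, 5.89 and 2.9 CPM to 30.6, 13.5 and 25.8 CPM (log2 fold change 2.21 ± 0.42 SE, edgeR adjusted p = 0.00421).

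The 4 respiratory burst genes are also 4 of the raised members of response to water deprivation, which had 6 DEGs up and 1 down of 27 tested (22.2% and 3.7%) but a median of -0.02. Of its 51 members 27 passed the filter, these 4 only through the heat libraries. The share raised thus follows in large part from the filter. Response to abscisic acid, the hormone of seed maturation and drought, had 3 up and 0 down of 36 (8.33% and 0%), at a median of 0.24: Solyc01g009160.2.1 (1.9, 2.37 and 1.59 CPM against 13.4, 7.16 and 8.66 CPM, log2 fold change 2.31 ± 0.29 SE, edgeR adjusted p = 0.000603), called under every alternative, Solyc01g005800.3.1 (1.97) and Solyc01g006950.3.1 (1.94), the last not without HT_HL replicate 1 (adjusted p = 0.0797). Against 3.17% up and 2.67% down of all genes, response to heat had 1 up and 0 down of 10 (10% and 0%) and unfolded protein binding 0 of 4, although 3 of those 4 were higher by the test with no fold threshold, at a median of 0.39. The raised member of response to heat, Solyc01g009440.3.1 (0.38, 0.71 and 0.14 CPM in ST_HL), also passed the filter only through the heat libraries. Cell wall genes had 3 up and 1 down of 17 (17.6% and 5.88%), among them a pectinesterase (Solyc01g059940.2.1, 1.36), which loosens or stiffens pectin, and a metal-binding protein annotated to heat acclimation (Solyc01g066880.3.1: 44.1, 39 and 33.9 CPM against 88.95, 65.6 and 99.1 CPM, 1.12). The pectinesterase lost its call without ST_HL replicate 1 or 3 or HT_HL replicate 1 or 3, and the metal-binding protein without HT_HL replicate 3 (0.99). In response to oxidative stress 0 were up and 2 down of 7 (0% and 28.6%), among them a cysteine protease inhibitor (Solyc01g009020.4.1, -1.03), not called without ST_HL replicate 2 or HT_HL replicate 1 or 3. This lowered gene also carries the term for cellular response to heat, though it is not in the list of response to heat.

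Transcripts whose IDs start with Solyc00g, the label of sequence not placed on a chromosome, held 24 called down and 1 up of 168 tested (14.3% and 0.595%), while IDs of the 12 chromosomes had between 1.71% and 3.28% down. This set was noticed in the data and is given as a description. Some of its lowered members, Solyc00g126010.1.1 among them, passed the filter on low counts only through the standard libraries. Their calls thus follow in large part from the filter, and their number was not counted. Within the Solyc00g set, 44 tested genes with a mitochondrial GO term had 12 down, 0 up and a median of -0.63, and 58 with a plastid term had 3 down, 0 up and a median of 0.07. Summed levels of the mitochondrial group were 167, 148.9 and 151.2 CPM in ST_HL and 116.2, 94.7 and 152 CPM in HT_HL, so the sums of HT_HL replicate 3 and ST_HL overlap. Examples are Solyc00g500243.1.1 with cytochrome c oxidase activity (7.65, 6.74 and 8.52 CPM against 2.15, 1.97 and 3.72 CPM, log2 fold change -1.55) and Solyc00g118690.1.1 with NADH dehydrogenase activity (4.28, 3.8 and 3.37 CPM against 0.75, 0.73 and 2.04 CPM, -1.71). The same group had 7 down and 0 up under heat in dim light (median -0.47) and a median of -0.84 in HT_HL embryo. Mitochondrial sequence occurs in several copies in plant genomes, so the assignment of such reads is uncertain.

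The lowered gene with the smallest adjusted p belonged to this set too. Solyc00g500048.1.1, with GO terms for RNA splicing and tRNA processing in the chloroplast, had 98.2, 103.5 and 98.1 CPM in ST_HL and 19.8, 21 and 25.1 CPM in HT_HL, 4.55-fold lower (log2 fold change -2.19 ± 0.13 SE, edgeR adjusted p = 2.57e-05). In dim light it was at 89 to 131 CPM in ST_DL and 67.1 to 70.4 CPM in HT_DL (log2 fold change -0.67), and the heat effect differed between the light levels (difference -1.52 ± 0.18 SE, edgeR adjusted p = 0.00423).

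Genes with no description held some of the largest changes. Solyc04g007580.1.1 rose from 1.09, 0.38 and 0.8 CPM to 22.6, 9.78 and 12 CPM (log2 fold change 4.28 ± 0.59 SE, edgeR adjusted p = 0.000899) and Solyc12g009240.1.1 from 5.42, 1.66 and 0.94 CPM to 67.5, 30.1 and 36.4 CPM (4.06 ± 0.64 SE, edgeR adjusted p = 0.00161); both were called under every alternative and were also up in dim light (3.1 and 4.14). Solyc10g075050.2.1 fell from 3.23, 28.1 and 37.4 CPM to 1.26, 1.61 and 2.6 CPM (-3.65), but it stood at 393.1 to 2456 CPM in ST_HL embryo and lost its call without ST_HL replicate 2 (adjusted p = 0.0529), ST_HL replicate 3 (0.0818), HT_HL replicate 1 (0.103) or HT_HL replicate 2 (0.0728). Solyc10g086520.2.1 fell from 4.42, 17.7 and 11.3 CPM to 1.45, 1.56 and 2.7 CPM (-2.55), with 0.54 to 1.6 CPM in ST_HL embryo.

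Heat in dim light, which shares no library with the comparison, moved most of the raised genes the same way. Of the 609 genes up in high light, 523 (85.9%) were also higher in HT_DL than in ST_DL, by a median of 0.98 on the log2 scale, and 238 were called up and 5 down there (background 2.97% up, 1.05% down; 50.7% of all tested genes were higher). Of the 513 genes down, 391 (76.2%) were lower in dim light too, but at a median of -0.38, and 55 were called down and 3 up. The arogenate genes Solyc09g011870.3.1 (1.73), Solyc06g074530.1.1 (2.89) and Solyc11g066890.1.1 (2.04) were called up in dim light too, as was the alpha dioxygenase Solyc02g087070.4.1 (3.96 against 1.75 in high light). The alpha dioxygenase passed the filter on low counts only through the heat libraries, HT_DL included, so its dim-light call also follows in large part from the filter. Other genes of the 238 passed the same way, and their number was not counted. In contrast to the arogenate genes, LDAP, PsbY and both trehalose-6-phosphate phosphatases called in high light had log2 fold changes of -0.11, -0.09, -0.17 (Solyc08g079060.4.1) and 0.25 (Solyc04g054930.3.1) in dim light, none of them called.

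**Figure D5:**
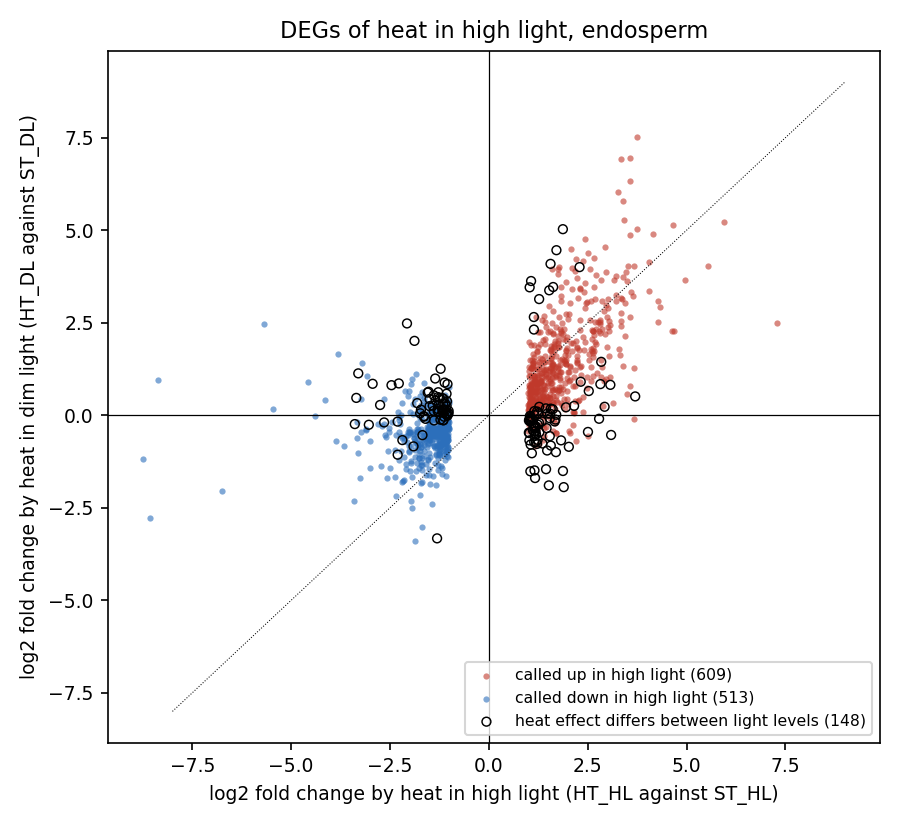
Log2 fold change by heat in dim light (y axis) against that in high light (x axis) for the 609 genes called up and 513 called down in high light; open circles mark the 148 whose heat effect differed between the light levels, and the dotted line equal effects. Of the raised genes 85.9% and of the lowered 76.2% have the same sign in dim light.

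The test of the difference itself called 395 genes of 19185 (2.06%), 197 (1.03%) with a higher and 198 (1.03%) with a lower effect in high light. Among the DEGs 84 of the raised and 64 of the lowered were called; since the DEGs were chosen on the high-light libraries, which enter this test, the share carries no weight of its own. Named genes with a difference past the thresholds were PsbY (2.88 ± 0.73 SE, edgeR adjusted p = 0.046), the weaker 3-ketoacyl-CoA synthase Solyc09g065780.3.1 (2.1 ± 0.37 SE, 0.0161), SDH2 (1.42 ± 0.37 SE, 0.0497, close to the threshold), both called T6P phosphatases (1.21 ± 0.16 SE, 0.00806 and -1.32 ± 0.16 SE, 0.00552) and LDAP (1.16 ± 0.21 SE, 0.0178). The lowered ones were ADP-glucose pyrophosphorylase (-1.75, edgeR adjusted p = 0.0449), PEP carboxylase (-1.42, 0.0297), cystathionine gamma-synthase (-1.11, 0.0326), histidinol-phosphate aminotransferase (-1.07, 0.0285) and N-acetylglucosamine-phosphate mutase (-1.03, 0.0235). The total fell to 58 without ST_DL replicate 2, 64 without ST_DL replicate 3, 111 without ST_HL replicate 3, 81 without HT_HL replicate 1, 167 without HT_DL replicate 2 and 200 without HT_DL replicate 3, rose to 662 without HT_HL replicate 2, and was 27 without the 4 libraries of highest RuBisCo sum.

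In embryos of the same conditions, 356 of the 466 raised DEGs that could be tested there (76.4%) were higher in HT_HL than in ST_HL, at a median of 0.62, and 75 were called up and 2 down. Of the 423 lowered DEGs tested there, 405 (95.7%) were lower, at a median of -1.09, and 118 were called down (backgrounds 1.43% up, 3.41% down; 51.9% of the genes in both tests were lower in the embryo). The high-light embryo replicates differ much among themselves, as the 393.1 and 407.7 CPM of ST_HL replicates 1 and 4 against 2456 and 1685 CPM of replicates 2 and 3 for Solyc10g075050.2.1 show. Summed RuBisCo small subunits were 72.1 and 42.7 CPM in ST_HL embryo replicates 2 and 3, the replicate numbers that were also highest in ST_HL endosperm. In embryo replicates 1 and 4 they were 1.18 and 1.22 CPM. Embryo and endosperm were dissected from the collected seeds, so libraries of both tissues may share seeds. The embryo is then not a separate sample of the heat effect, and the test between tissues treated all libraries as separate. The heat effect differed between the tissues in 167 of 21153 genes (0.789%), 112 of them (0.529%) with a higher and 55 (0.26%) with a lower effect in endosperm. The named ones were the phospholipase Solyc08g022240.1.1 (difference 3.70 ± 0.64 SE, edgeR adjusted p = 0.00906), the beta-amylase Solyc08g007130.4.1 (3.17 ± 0.78 SE, 0.0421), the arogenate dehydratase Solyc11g066890.1.1 (2.39 ± 0.38 SE, 0.00528), which was called down in embryo (-1.01), and the ndhA splicing factor (-1.44 ± 0.29 SE, 0.0175). Leaving out any 1 endosperm library other than HT_HL replicate 3 moved this count to between 48 and 102, and leaving out HT_HL embryo replicate 1 or 2 to 37 or 276.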

How the data were processed

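RNA of dissected endosperm was sequenced as 50 bp reads. The authors quantified it with Salmon 0.14.1 (quasi-mapping, sequence bias correction, k-mers of 31) against SL4.0 transcripts (annotation ITAG4.0) and deposited expected counts without normalization for 33976 IDs; 10.5% of values are not whole. Reads of similar genes are divided by estimate. The strandedness of the counting is not given in the sources used here. The counts were rounded.

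The 12 endosperm libraries entered 1 model with a coefficient for each condition (edgeR 4.0.16, R 4.3.3; TMM, filterByExpr with a minimum count of 10 and total of 15, quasi-likelihood F-test), after a test on simulated data. DEGs passed 0.05 after Benjamini-Hochberg adjustment and changed by more than 1 on the log2 scale. The same fit gave heat in dim light and the heat by light difference; all 26 libraries gave the heat by tissue difference, and the 14 embryo libraries the heat effect in embryo. SE is the fold change over the root of F. The common biological coefficient of variation was 0.219. Alternatives were DESeq2 1.42.0 (used in the study's methods), limma 3.58.1 voom with quality weights, RLE, no filter, no fold threshold, the 6 libraries alone, all 26 libraries, a replicate block, leaving out each library and, added later, leaving out 4 libraries. No pair of replicates agreed within sampling noise (chi-square per degree of freedom 11.93 or more).

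Named were the 12 up and 12 down Mercator-described DEGs of largest fold change with no overlap and at least 5 CPM, at most 3 DEGs per list, and 2 up and 2 down undescribed DEGs of at least 10 CPM; others are named as family or group members. Gene lists follow Mercator bins and GO terms; 26 lists set by description matched no ID. Members, lists and tests were chosen with earlier results of these data known.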

Additional observations from a re-analysis of the deposited data

Results flagged for a closer look

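The heat effect of 395 genes differed between light levels in endosperm and that of 167 genes between endosperm and embryo, each by a test of the difference. Among the named genes the differences between light levels (high minus dim, log2) were 2.88 for PsbY Solyc10g077120.3.1, 2.1 for the 3-ketoacyl-CoA synthase Solyc09g065780.3.1, 1.42 for SDH2 Solyc04g055030.2.1, 1.21 for the T6P phosphatase Solyc08g079060.4.1 and 1.16 for LDAP Solyc05g015390.3.1. They were -1.75 for ADP-glucose pyrophosphorylase Solyc07g056140.3.1, -1.42 for PEP carboxylase Solyc07g062530.3.1, -1.32 for the T6P phosphatase Solyc04g054930.3.1, -1.11 for cystathionine gamma-synthase Solyc02g067180.3.1, -1.07 for histidinol-phosphate aminotransferase Solyc04g009350.3.1 and -1.03 for N-acetylglucosamine-phosphate mutase Solyc08g077270.4.1. The differences between tissues (endosperm minus embryo) were 3.70 for the phospholipase Solyc08g022240.1.1, 3.17 for the beta-amylase Solyc08g007130.4.1, 2.39 for the arogenate dehydratase Solyc11g066890.1.1 and -1.44 for the ndhA splicing factor Solyc02g068760.4.1. What sets these differences was not tested. Groups of 3 libraries were not searched for single outlying values.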

How the results depend on the processing

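The 609 up and 513 down DEGs stayed within 1.5 times under DESeq2 (611 and 652), voom, RLE, no filter, the 6 libraries alone and the replicate block (551 and 423). The up count moved to 384 with all 26 libraries, and the counts to 2561 and 2003 with no fold threshold and to 258 and 241 without ST_HL replicates 2 and 3, ST_DL replicate 1 and HT_DL replicate 3 (added after the data were seen). Leaving out each library gave 395 to 696 up and 254 to 574 down. Genes whose heat effect differed between light levels numbered 395, and 986 with no fold threshold, 753 with DESeq2, 1085 with voom, 161 with the replicate block, 27 without those 4 libraries, and 58 to 662 without each library. Between tissues 167 became 367 with no fold threshold, 385 with DESeq2, 816 with voom, 105 with no filter, 327 with the replicate block, and 37 to 276 without each library. The cause of these moves was not tested.

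Deviations of same-numbered HT_HL and ST_HL libraries correlated at -0.00012, 0.00738 and -0.178, those of differently numbered ones at -0.139 to 0.209. No pairing by replicate number was seen, but so few correlations cannot exclude one. A pairing of embryo with endosperm libraries was not examined. No named gene reversed. Of 71 named genes, 29 lost their call with all 26 libraries, 46 without the 4 libraries, 26 without HT_HL replicate 1, 19 without ST_HL replicate 3 and at most 9 under any other alternative; 11 kept it under all. Of the list counts and medians, 28 and 2 moved and 266 and 145 did not. Spread between replicates rather than depth limits the precision, except under about 1 CPM, where 33 raised and 94 lowered DEGs lie.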
